A study of Mus musculus with 9 samples.

Results

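In whole retinas of adult mice, 301 of 1180 annotated microRNA gene loci (25.5%) had a measurable level in bulk RNA-Seq. These 301 loci were chosen by name and level, as the gene names that start with Mir and a digit, or with Mirlet7, and have a mean TPM (the share of transcripts corrected for gene length, scaled to 1000000 per library) of at least 1 over all 9 libraries. The 9 names of microRNA host transcripts, which end in hg, were left out. Of the other loci, 392 were listed at 0 in all 9 libraries, and 487 had a mean above 0 but under 1 TPM. The level itself chose the loci, so the levels are given as a description. The mean spans all genotypes, so near the limit a difference between genotypes also had a part in the choice. For 25 of the loci the mean fell below 1 TPM when the libraries of 1 genotype were set aside, and the tests at these loci are not independent of the choice.

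The libraries were made from C57BL/6J mice at postnatal day 42 (P42), each from the pair of retinas of 1 mouse, and the 3 mice of a genotype are the replicates. The first group, +/+, carried wild type alleles of Rbpms, which encodes an RNA-binding protein that marks retinal ganglion cells, the output neurons of the retina. The second, Cre/+, carried 1 knock-in allele, Rbpms-CreERT2, in which P2A and the tamoxifen-dependent recombinase CreERT2 are fused to the end of the RBPMS coding sequence, and the third, Cre/Cre, carried this allele on both chromosomes. The knock-in was made by Cas9 cutting in zygotes and is expressed wherever the Rbpms locus is, while ganglion cells are a minor part of the whole retina. In bulk RNA, fewer cells of a type and less RNA per cell cannot be told apart.

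A microRNA is cut from a hairpin in a longer RNA. Drosha and Dgcr8 free the hairpin in the nucleus, Dicer1 trims it to a short duplex, and an Argonaute protein keeps 1 strand, which pairs with messenger RNAs mainly through its seed, bases 2 to 8. Some hairpins skip the first cut, since they are whole short introns released by splicing (mirtrons), or share 1 end with an intron. In the retina, the miR-183/96/182 cluster is a hallmark of photoreceptors and miR-124 of neurons at large. The libraries here were poly(A)-selected and read in fragments far longer than a mature microRNA. The values therefore measure reads of the precursor or host transcript that lie over a short stretch, and not the mature microRNA. The stretch measured 52 to 139 bases in 299 of the 301 loci, with a median of 73, and 1 TPM stood for a mean of 1.10 to 1.39 reads over each base, depending on the library.

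The mature sequences below belong to the detected loci that the results turn on. They are RefSeq records on GRCm38.p6, written 5′ to 3′ with the seed in capitals. Of the 301 loci, 278 matched a record by name, with 491 mature sequences and 435 different seeds between them. The first set comes from the loci of highest level.
miR-3064-3p: uGCCACACugcaacaccuuaca
miR-3064-5p: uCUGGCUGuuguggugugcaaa
miR-5125: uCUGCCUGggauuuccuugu
miR-7052-3p: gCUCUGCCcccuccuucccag
miR-7052-5p: uGUGGGAAgguggaggccuuu
miR-8114: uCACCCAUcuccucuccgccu
miR-568: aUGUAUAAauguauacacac
miR-1982-3p: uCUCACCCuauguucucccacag
miR-1968-5p: uGCAGCUGuuaaggaugguggacu

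The second set comes from the loci with the smallest p-values between genotypes, which are described further on. No 2 sequences of this set share a seed.
miR-1249-3p: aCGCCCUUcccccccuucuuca
miR-6946-3p: uUUCUUCUcuucccuuucag
miR-6946-5p: aAAAGGGAgagaaagaaaugc
miR-7012-3p: uGACCUGUggcuccucucccag
miR-7012-5p: aAGGAGAGgaguuggcagggacu
miR-7087-3p: uGCUGGCUcucuccccugccag
miR-7087-5p: aGGCAGGUguggagcuggucu
miR-12193-3p: aCCGGUCCuuucuguccccag
miR-1192: aAACAAACaaacagaccaaauu

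The third set shows the families, since 41 seeds were shared by several loci, 80 loci in all. The seed GAGGUAG of let-7 was held by 6 detected loci, more than any other seed, and ACAUUCA of miR-181 by 5. The seed AAAGUGC was held by Mir20a, Mir93 and Mir106b. Mir132 and Mir212 shared AACAGUC. The 3 sensory microRNAs miR-183, miR-96 and miR-182 each had a seed of their own.
let-7a-5p: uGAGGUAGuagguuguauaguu
let-7d-5p: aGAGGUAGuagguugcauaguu
let-7e-5p: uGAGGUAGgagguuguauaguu
let-7f-5p: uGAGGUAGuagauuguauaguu
let-7g-5p: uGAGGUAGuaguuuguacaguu
let-7i-5p: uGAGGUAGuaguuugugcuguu
miR-181a-5p: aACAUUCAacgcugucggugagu
miR-181b-5p: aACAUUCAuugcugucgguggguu
miR-181d-5p: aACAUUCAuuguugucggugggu
miR-20a-5p: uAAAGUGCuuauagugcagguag
miR-93-5p: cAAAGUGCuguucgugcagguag
miR-106b-5p: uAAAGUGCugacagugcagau
miR-132-3p: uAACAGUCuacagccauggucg
miR-212-3p: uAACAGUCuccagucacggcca
miR-183-5p: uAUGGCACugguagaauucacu
miR-96-5p: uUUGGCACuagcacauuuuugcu
miR-182-5p: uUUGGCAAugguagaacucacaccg

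The libraries held 4.05 to 4.65 aligned gigabases each. Among markers of the retina, the Müller glia gene Rlbp1 was between 433 and 514 TPM, but others were less even. The horizontal cell gene Onecut1 ran from 3.33 to 6.50 TPM. The ganglion cell gene Thy1 had 342, 344 and 344 TPM in +/+ and 303, 327 and 317 TPM in Cre/+. In Cre/Cre it had 253, 299 and 281 TPM, so no 2 genotypes overlapped. The ganglion cell genes Pou4f1 and Slc17a6 overlapped between +/+ and Cre/+. Some markers of other tissue were uneven between libraries. The lens gene Cryaa was at 6.37 to 481 TPM. The blood genes did not vary together, with Hba-a1 at 0 to 250 TPM, Hbb-bs at 0 to 80.4 TPM and Alas2 at 0.925 to 4.21 TPM. Hba-a1 was at 0 in +/+ replicate 1 and Cre/Cre replicate 2, where Hbb-bs had 50.7 and 80.4 TPM. How blood content differed between libraries is therefore not settled by these genes. The pigment epithelium gene Rpe65 was at 1.03 to 11.6 TPM and the endothelial gene Cldn5 at 17.8 to 27.3 TPM. The library of Cre/Cre replicate 1 stood apart, with 92052 TPM of the ribosomal precursor Rn45s where the other 8 had 827 to 3359, and this lowers the TPM of its other genes. Its size factor by the median-ratio method was 0.917, against 0.985 to 1.03 in the others. Xist, which marks females, was at 2.08 to 3.16 TPM in Cre/+ replicate 3, Cre/Cre replicate 1 and Cre/Cre replicate 3, and at 516 to 585 TPM in the other 6. All +/+ libraries were among the high ones, so Xist was not balanced over the genotypes. The part of these differences in the values below was not tested one by one, but the counts were repeated without each library and with Xist as a covariate.

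Rbpms, the targeted gene, was at 43.2, 38.4 and 43.4 TPM in +/+, 31.3, 32.2 and 33.1 TPM in Cre/+, and 19.7, 19.1 and 24.2 TPM in Cre/Cre. The order followed the number of knock-in alleles, and no 2 genotypes overlapped. The log2 fold change of TPM + 1 was −0.96 (SE 0.10) in Cre/Cre against +/+, with a Benjamini-Hochberg adjusted p of 0.000581 in limma. It was −0.36 (SE 0.10) in Cre/+ against +/+, with a limma adjusted p of 0.355. In Cre/Cre against Cre/+ it was −0.60 (SE 0.10), with a limma adjusted p of 0.0567. An exact permutation test on TPM gave p = 0.1 in each comparison, the lowest value that 3 libraries per genotype allow.

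The 301 loci together took only 3659 to 4039 TPM, or 0.366% to 0.404% of a library. Their median level was 3.34 TPM, at a median coverage of 4.11 reads, with 82 loci between 1 and 2 TPM, 151 between 2 and 10, 68 at 10 or more and 3 at 100 or more. 234 loci were above 0 in every library and 67 were at 0 in at least 1. Just inside the limit lay Mir7116, Mir5617, Mir344, Mir6959 and Mir1192, with means of 1.06, 1.05, 1.04, 1.02 and 1.01 TPM, and just outside it Mir1251, Mir17, Mir337, Mir202 and Mir7090, with 0.993, 0.992, 0.972, 0.961 and 0.951 TPM. A limit of 0.5 TPM would have taken 394 loci, a limit of 2 TPM 219, and a limit of 5 TPM 111.

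Mir3064 stood far above the rest and made up 30.5% of the summed TPM of the 301 loci. It lies at chr11:106782693-106782759 (mm10, minus strand), inside an annotated coding exon of a transcript of Ddx5, which encodes an RNA helicase of the Drosha complex. Mir3064 had 1140, 1072 and 1040 TPM in +/+, 1301, 1308 and 1270 TPM in Cre/+, and 974, 1282 and 1233 TPM in Cre/Cre. The Cre/+ libraries lay above all +/+ libraries and those of Cre/Cre spanned both. The log2 fold change in Cre/+ against +/+ was 0.25 (SE 0.09), with a limma adjusted p of 0.397. Ddx5 itself had a mean of 1490 TPM, and its TPM correlated with that of the locus with r = 0.92 over the 9 libraries, which share depth and scaling.

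**Figure D1:**
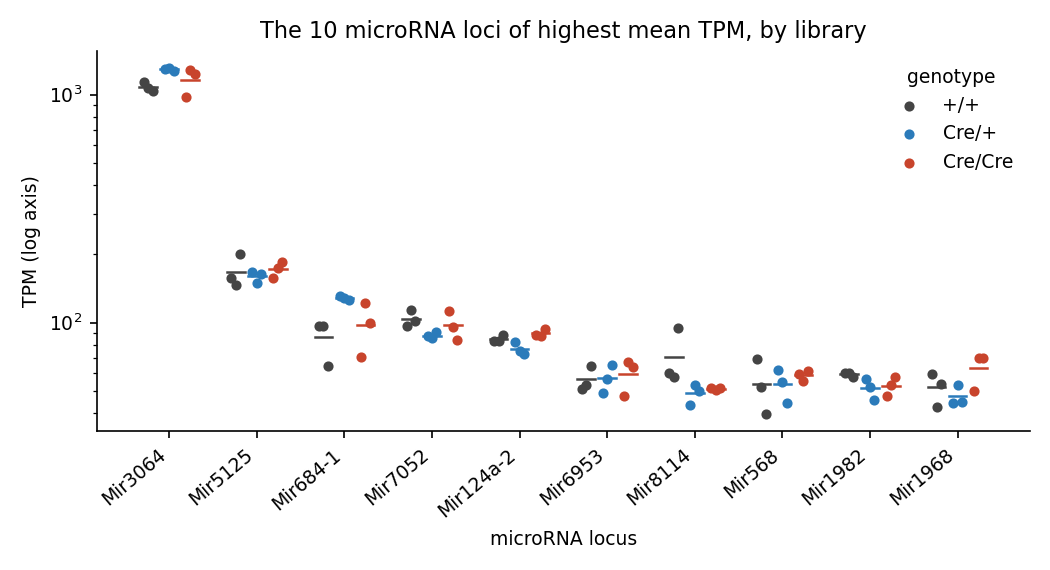
TPM (log axis) of the 10 detected microRNA loci of highest mean level in each of 9 libraries, with genotypes in grey (+/+), blue (Cre/+) and red (Cre/Cre), points for libraries and short lines for means. Mir3064 sits near 1000 TPM, and from Mir684-1 down the loci lie at mean levels of 104 to 54.3 TPM.

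Mir5125, in an intron of the splicing factor gene Srrm2 at chr17:23823291-23823369, had 156, 146 and 200 TPM in +/+, 167, 149 and 164 TPM in Cre/+, and 156, 173 and 185 TPM in Cre/Cre. Mir684-1 was listed at 9 positions, whose values were summed and which may share reads. It had 97.0, 97.0 and 64.7 TPM in +/+, 130, 128 and 126 TPM in Cre/+, and 70.7, 122 and 99.6 TPM in Cre/Cre. Cre/+ was higher than the other genotypes in every library of Mir684-1, at a log2 fold change of 0.59 (SE 0.23) against +/+ and a limma adjusted p of 0.431, whereas the genotypes of Mir5125 overlapped.

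Mir7052, in an intron of the deubiquitinase gene Josd2 at chr7:44470347-44470411, had 96.2, 114 and 101 TPM in +/+, 87.0, 85.4 and 91.0 TPM in Cre/+, and 113, 95.4 and 83.6 TPM in Cre/Cre. With a mean of 96.2 TPM, the locus had a higher TPM than its host at 61.8 TPM. Mir124a-2, at chr3:17795662-17795770 and partly in an exon of Mir124-2hg, had 82.8, 83.1 and 87.8 TPM in +/+, 82.0, 75.1 and 73.2 TPM in Cre/+, and 87.9, 87.2 and 93.9 TPM in Cre/Cre. It was the highest of the neuronal microRNA loci and spread little within a genotype.

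The other loci among the 10 highest were Mir6953 in Grina (mean 57.7 TPM), Mir8114 in an untranslated exon of the glutamine synthetase gene Glul (57.1 TPM), Mir568 in an untranslated exon of Zbtb20 (55.4 TPM), Mir1982 in a non-coding transcript of Oaz1 (54.5 TPM) and Mir1968 in an intron of Grtp1 (54.3 TPM). Mir8114 had 60.3, 58.0 and 94.4 TPM in +/+, 43.5, 53.1 and 50.4 TPM in Cre/+, and 51.6, 50.8 and 51.7 TPM in Cre/Cre. All 3 +/+ libraries lay above the other 6, but the limma adjusted p was 0.397 in Cre/+ and 0.659 in Cre/Cre, each against +/+. Among these 10 loci, which held 49.3% of the summed TPM, 0 differences passed an adjusted p of 0.05.

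Where a locus lies went with whether it was detected. Of the listed loci with 1 position of at most 200 bases, 77 of 177 inside an exon of another gene on the same strand were detected (43.5%, median 7.31 TPM), as were 28 of 80 partly in such an exon (35.0%) and 155 of 515 in a same-strand intron (30.1%, median 3.24 TPM). By contrast, 15 of 232 loci outside other genes (6.47%) and 1 of 33 loci that lay over an exon of the opposite strand alone (3.03%) were detected. Loci in an intron of the opposite strand alone lay between, with 15 of 75 detected (20.0%). Exon positions were read from GENCODE models on the mm10 assembly, in which 287 of the 301 loci had the deposited position. Among exonic loci, those in non-coding transcripts of protein-coding genes, such as retained introns, were detected in 35 of 47 cases (74.5%), those in exons of noncoding genes in 33 of 83 (39.8%), those in coding sequence in 22 of 71 (31.0%), and those in untranslated regions of coding transcripts in 15 of 56 (26.8%).

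**Figure D2:**
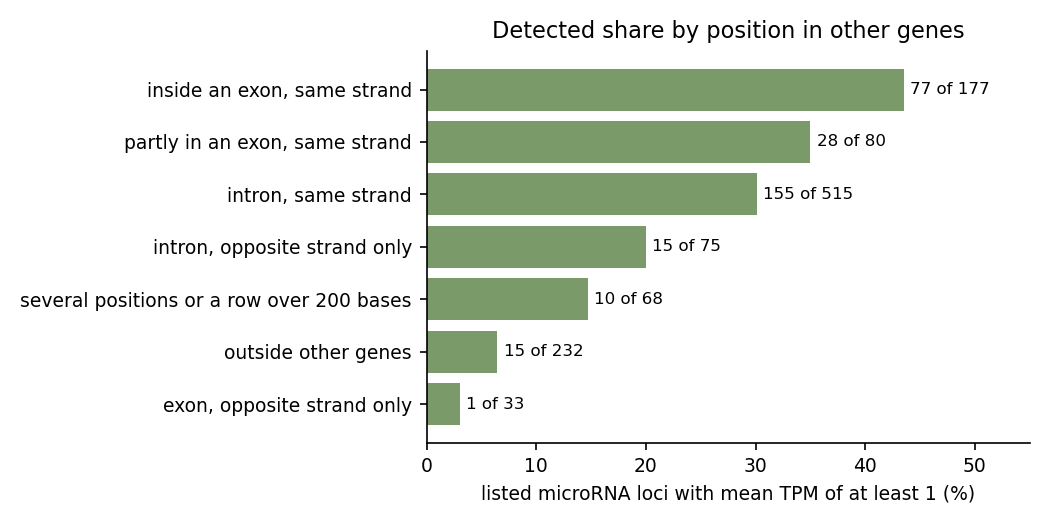
Share (%) of listed microRNA loci with a mean TPM of at least 1, by their position relative to other annotated genes, with the numbers of detected and listed loci beside each bar. The share was 43.5% inside same-strand exons and 6.47% outside other genes.

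The level of the host gene moved in step with detection. Of the same-strand intronic loci whose host was in the tables, 0 of 45 were detected with a host under 1 TPM, 3 of 111 (2.70%) with a host of 1 to 10 TPM, 109 of 264 (41.3%) with 10 to 100 TPM, and 33 of 50 (66.0%) with at least 100 TPM. Over the 214 detected loci with a host in the tables, the locus had a median of 0.0824 of the host's TPM, and 120 were under 10% of it. The locus exceeded its host at 3 loci: Mir7052 with Josd2 (ratio 1.56), Mir6972 with the complement gene Cfb (1.25) and Mir7058 with Lat (1.06). Across the 9 libraries, locus and host correlated with a median r of 0.12, and with 0.24 among the 55 loci whose mean coverage was at least 10 reads. These correlations are a description of 9 libraries that differ in depth and composition.

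The ends of the loci gave a second pattern. In 124 of the 291 detected loci with 1 position (42.6%), the 3′ end lay within 5 bases of the start of an exon on the same strand. Both ends lay at exon boundaries, as in a mirtron, at 14 of these loci, and the 3′ end alone at 110. Of all listed loci with the 3′ end at an exon start, 124 of 239 (51.9%) were detected, compared with 167 of 873 others (19.1%). The gap was also seen within classes of host level, with 64 of 114 against 45 of 150 intronic loci at a host of 10 to 100 TPM (56.1% and 30.0%), and 17 of 21 against 16 of 29 at a host of at least 100 TPM (81.0% and 55.2%). Reads of host RNA that still holds the end of the intron and reads of the excised intron cannot be told apart in these data.

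**Figure D3:**
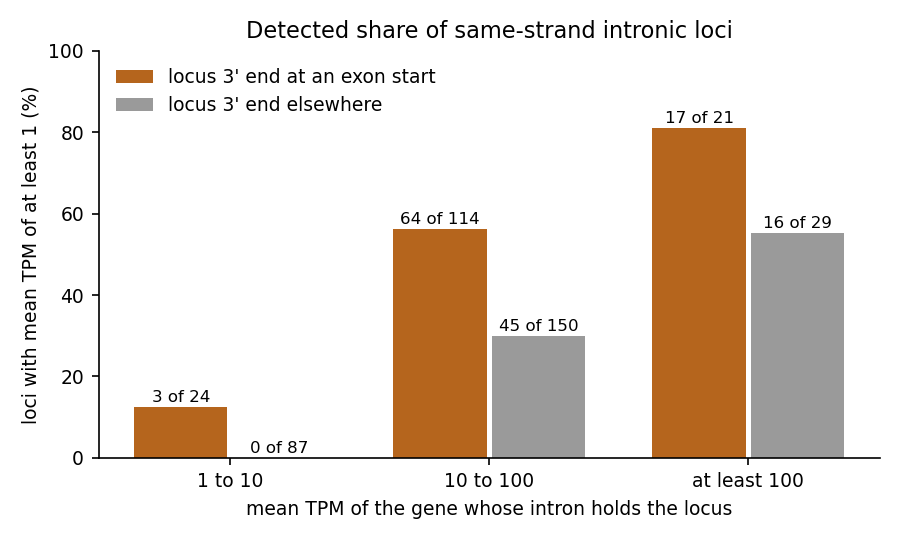
Share (%) of same-strand intronic microRNA loci with a mean TPM of at least 1, by the mean TPM of the host gene, for loci whose 3′ end lies within 5 bases of an exon start (brown) and for the others (grey), with numbers of loci above the bars. In each class of host level the brown bar is the taller.

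The mature sequences carried the same mark, since introns end in AG, and the counts below are not a second, separate pattern. Of the 3p sequences of detected loci, 90 of 226 (39.8%) ended in AG, against 104 of 474 (21.9%) of listed loci that were not detected. Within the detected loci the share was 73 of 99 (73.7%) where only the 3′ end lay at an exon start, and 8 of 104 (7.69%) where neither end lay at an exon boundary. The sequences of miR-7052-3p, miR-7012-3p, miR-7087-3p, miR-6946-3p and miR-12193-3p above end in this way, while miR-1249-3p, miR-132-3p and miR-212-3p, from loci with neither end at an exon boundary, do not. The mark is not strict, since miR-3064-3p does not end in AG although its locus ends at an exon start. The 5p sequences, such as those printed for let-7 and miR-181, come from the other side of the hairpin and were not counted. Among them, miR-20a-5p and miR-93-5p end in AG although their loci have neither end at an exon boundary.

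The loci of several microRNAs best known from the retina were low or undetected in these reads, which do not measure the mature microRNA. Of 56 names on a list of retinal, neuronal, pigment epithelial and blood microRNAs, 55 were in the tables and 22 were detected. All 3 loci of the sensory cluster on chr6 were detected, at 7.38 TPM for Mir182, 3.35 TPM for Mir183 and 1.73 TPM for Mir96. Their host transcript Mirc35hg was at 74.6 TPM, and its correlation with the 3 loci over 9 libraries was 0.47 for Mir182 and 0.78 for both others.

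Mir182, at chr6:30165918-30165992, had 5.04, 3.22 and 7.07 TPM in +/+, 6.56, 6.43 and 14.5 TPM in Cre/+, and 6.71, 7.45 and 9.42 TPM in Cre/Cre. Mir183, at chr6:30169668-30169737, had 0.791, 1.31 and 3.89 TPM in +/+, 3.43, 2.50 and 1.67 TPM in Cre/+, and 9.41, 0.657 and 6.46 TPM in Cre/Cre. Mir96, at chr6:30169446-30169551, ranged from 0.671 to 2.46 TPM. The genotypes overlapped at all 3 loci, and the limma adjusted p was at least 0.475 in every comparison.

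Of the 15 neuronal loci on the list, 5 were detected: Mir124a-2, Mir7-1 in Hnrnpk (13.7 TPM), Mir212 (4.07 TPM), Mir132 (2.96 TPM) and Mir218-1 in the axon guidance gene Slit2 (1.54 TPM). Some loci were low although the transcript around them was not. Mir124a-1 was at 0.00103 TPM, although the transcript Mir124a-1hg that spans it had 1343 to 1495 TPM, the highest of the host transcripts named for a microRNA. Likewise, Mir22hg at 15.3 TPM and Mir100hg at 30.7 TPM spanned loci that were not detected, while in Mirg, a noncoding RNA of an imprinted region on chr12, 9 of 10 spanned loci were detected. Mir17hg, at 11.1 TPM, spanned 1 locus in its deposited position, Mir92-1, which was not detected. The 4 detected loci of its cluster, described below, do not lie wholly within that position. Other host transcripts were low themselves, with Mir155hg at 0.377 TPM, Mir1a-1hg at 0.102 TPM and Mir9-3hg at 1.65 TPM, and the loci they span were not detected either. How reads were divided between a locus and its host was not tested.

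The let-7, miR-99, miR-100 and miR-125 families had 8 of 17 loci detected. The highest was Mirlet7d at chr13:48536012-48536114, with 15.3, 14.0 and 19.2 TPM in +/+, 18.5, 19.4 and 22.2 TPM in Cre/+, and 9.18, 17.2 and 26.0 TPM in Cre/Cre. Its neighbour Mirlet7f-1 had 8.36, 7.25 and 8.61 TPM in +/+, 8.57, 15.5 and 7.43 TPM in Cre/+, and 3.69, 5.92 and 5.37 TPM in Cre/Cre. The Cre/Cre libraries of Mirlet7f-1 were below all others, with a log2 fold change of −0.61 (SE 0.23) against +/+ and a limma adjusted p of 0.655, whereas the genotypes of Mirlet7d overlapped.

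Of 10 inner retinal loci, 5 were detected, all of the miR-181 family, with Mir181b-1 highest at 12.7 TPM and the other 4 between 1.08 and 1.44 TPM. Of the blood and endothelial list, 1 of 9 was detected, Mir486 at 3.34 TPM, which lies in Ank1, itself at 34.9 TPM. The endothelial locus is spelled Mir126a in the tables and had 1.33 TPM. This name was looked up after the values were seen. The 2 pigment epithelial loci Mir204 and Mir211 were below the limit, at 0.768 and 0.270 TPM. Of the 22 detected loci of the whole list, an unadjusted limma p under 0.05 was found at 2 (9.09%, against 10.7% of all genes) in Cre/+ against +/+, at 3 (13.6%, against 6.97%) in Cre/Cre against +/+ and at 2 (9.09%, against 6.58%) in Cre/Cre against Cre/+. With so few loci these shares are a description, and 0 passed the adjustment over all genes.

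Detected loci lay in 19 clusters, in which neighbours on 1 strand were at most 10 kb apart. The largest held 12 loci on chr12 from 109734139 to 109747960, in and beside Mirg, between 1.06 and 10.7 TPM. On chr14, Mir18, Mir19a, Mir20a and Mir19b-1 of the miR-17/92 cluster were detected at 2.72, 1.17, 3.58 and 2.47 TPM, with Mir17 just below the limit. Mir421 and Mir374b in Ftx, a noncoding gene beside Xist, were the highest of the clustered loci, at 34.8 and 28.2 TPM.

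Short loci were noisy. The coefficient of variation within a genotype had a median of 71.4% for the 82 loci at 1 to 2 TPM, where 1069 other genes at that level had 27.6%. It was 46.3% against 16.3% at 2 to 10 TPM and 21.1% against 7.56% at 10 to 100 TPM. The standard error of the log2 fold change had a median of 0.38 over the 301 loci and of 0.11 over all 15198 genes tested.

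In Cre/+ against +/+, 0 of 301 loci were called at a limma adjusted p of 0.05, where 0.00658% of all genes tested were called. The smallest adjusted p of a locus was 0.130. At an unadjusted p under 0.05 there were 34 loci, which is 11.3% of the loci against 10.7% of all genes. Of these, 13 were higher in Cre/+ and 21 lower, where 4.9% of all genes were higher and 5.82% lower. The genotypes did not overlap at 36 loci (12.0%, against 22.2% of all genes). The median log2 fold change was 0.02 over the loci and 0.00 over all genes.

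In Cre/Cre against +/+, 0 loci were called as well, again with 0.00658% of all genes, and the smallest adjusted p in limma was 0.0580. At an unadjusted p under 0.05 there were 36 loci, or 12.0% against 6.97% of all genes. Of these, 14 were higher in Cre/Cre and 22 lower, where 1.58% of all genes were higher and 5.39% lower. The genotypes did not overlap at 40 loci (13.3%, against 10.8% of all genes), and the median log2 fold change was 0.01, against −0.02 over all genes.

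Between Cre/Cre and Cre/+, 1 locus was called, Mir1249, as were 0.0132% of all genes. An unadjusted p under 0.05 was found at 43 loci, or 14.3% against 6.58% of all genes. Of these, 23 were higher in Cre/Cre and 20 lower, where 2.38% of all genes were higher and 4.2% lower. The genotypes did not overlap at 39 loci (13.0%, against 12.0%). The 3 comparisons share libraries and are not independent of each other. Of the 34, 36 and 43 loci, 5, 6 and 6 were among the 25 that reached the limit only with the libraries of a given genotype included, as did 192 of all 15198 genes. The shares of loci are therefore given as a description.

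**Figure D4:**
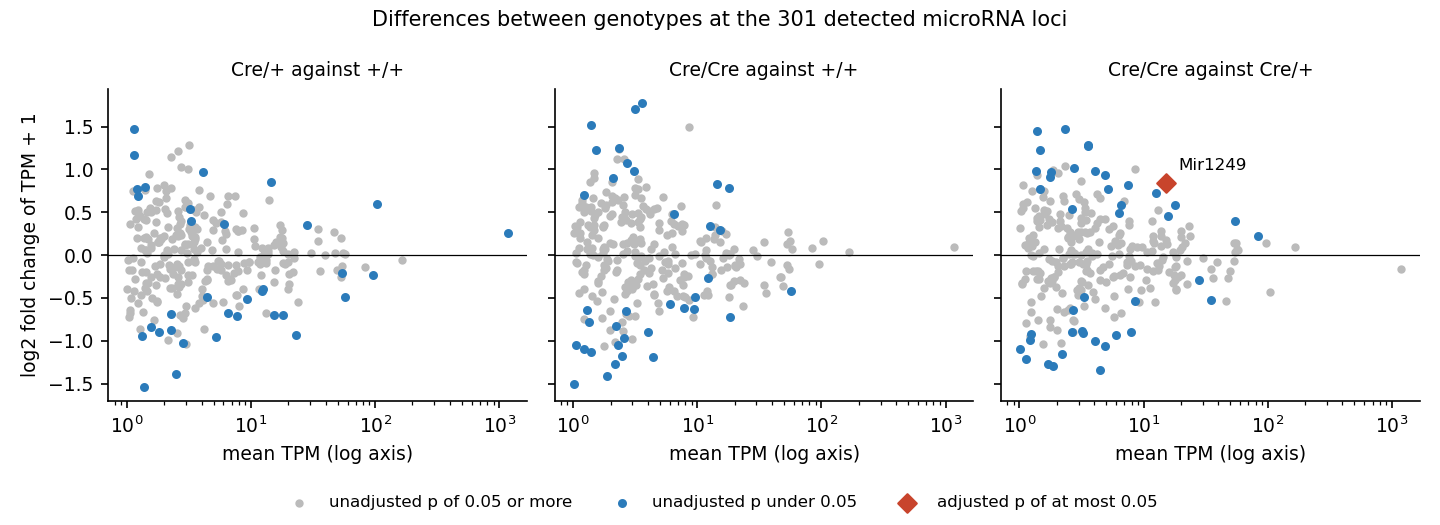
Log2 fold change of TPM + 1 (vertical axis) against mean TPM (log axis) for the 301 detected microRNA loci in the 3 comparisons, with loci of unadjusted limma p under 0.05 in blue and those of adjusted p of at most 0.05 as a red diamond. Mir1249 is the only diamond, and the spread widens towards 1 TPM.

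Mir1249 rose in Cre/Cre relative to Cre/+. It lies at chr15:84951526-84951623 on the minus strand, inside an exon of a non-coding transcript of 5031439G07Rik. Mir1249 had 15.6, 18.6 and 16.3 TPM in +/+, 9.13, 12.3 and 8.88 TPM in Cre/+, and 17.1, 19.4 and 19.9 TPM in Cre/Cre. The Cre/+ libraries were below all 6 others, and +/+ and Cre/Cre overlapped. The means were 16.8 ± 1.53, 10.1 ± 1.88 and 18.8 ± 1.52 TPM (SD, n = 3).

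For Mir1249 the log2 fold change in Cre/Cre against Cre/+ was 0.85 (SE 0.13), with a limma adjusted p of 0.0452 over all genes. In Cre/+ against +/+ it was −0.69 (SE 0.13) with an adjusted p of 0.130, and in Cre/Cre against +/+ 0.15 with an adjusted p of 0.885. The host gene 5031439G07Rik had means of 37.5, 34.9 and 35.1 TPM in +/+, Cre/+ and Cre/Cre, with a log2 fold change of 0.00 and an adjusted p of 0.993 in Cre/Cre against Cre/+. The call for Mir1249 lay near the threshold and held in 8 of 21 ways of fitting the data, over which the adjusted p ran from 0.00999 to 0.656. Without Cre/Cre replicate 1, the library rich in Rn45s, the log2 fold change was 0.91 and the adjusted p 0.148.

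**Figure D5:**
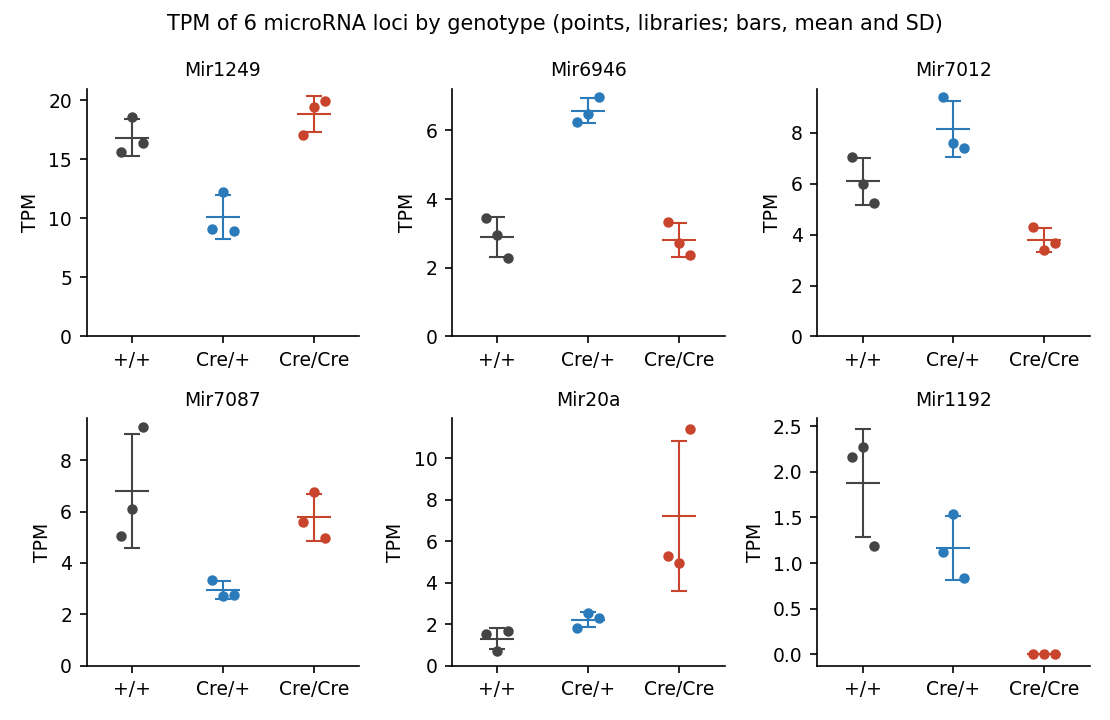
TPM of 6 microRNA loci in each library (points), with the mean and SD of the 3 libraries of a genotype (bars), each panel with its own axis from 0. Mir1249 and Mir7087 are lowest and Mir6946 and Mir7012 highest in Cre/+, Mir20a is highest in Cre/Cre, and Mir1192 is at 0 in all 3 Cre/Cre libraries.

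Several other loci had Cre/+ apart from the other genotypes without passing the adjustment. Mir6946, in an intron of Sec24c (a coat protein gene of vesicle transport) at chr14:20690635-20690703, had 3.45, 2.96 and 2.30 TPM in +/+, 6.25, 6.48 and 6.97 TPM in Cre/+, and 3.34, 2.72 and 2.36 TPM in Cre/Cre. The log2 fold change of Mir6946 was 0.97 (SE 0.17) in Cre/+ against +/+ (limma adjusted p = 0.130) and its mean in Cre/Cre, 2.81 ± 0.497 TPM (SD), was below the 6.57 ± 0.366 TPM of Cre/+ (limma adjusted p = 0.0701). All Cre/+ libraries lay above the other 6, while Sec24c had means of 101, 98.0 and 97.9 TPM.

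Mir7012, in an intron of Dennd4b at chr3:90270149-90270212, had 7.07, 5.97 and 5.25 TPM in +/+, 9.42, 7.60 and 7.42 TPM in Cre/+, and 4.29, 3.40 and 3.67 TPM in Cre/Cre. No 2 genotypes overlapped, and the log2 fold change in Cre/Cre against Cre/+ was −0.93 (SE 0.16) with a limma adjusted p of 0.0608. Mir7087, in an intron of the lysosomal gene Sidt2 at chr9:45939521-45939590, had 5.04, 6.10 and 9.30 TPM in +/+, 3.35, 2.73 and 2.75 TPM in Cre/+, and 5.58, 6.77 and 4.98 TPM in Cre/Cre. Its log2 fold change in Cre/+ against +/+ was −0.95 (SE 0.19), with a limma adjusted p of 0.239.

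The remaining loci with the smallest p in Cre/+ against +/+ were Mir7237 in Banp, with mean levels of 2.24 TPM in +/+ and 0.728 TPM in Cre/+ (limma adjusted p = 0.327), and Mir7081 in the DNA methyltransferase gene Dnmt1. Mir7081 had means of 3.08, 0.340 and 0.740 TPM in +/+, Cre/+ and Cre/Cre and reached the limit only through +/+, the genotype in which it was high, so its values are a description. Mir12193 in Arl2 had means of 16.1 TPM in Cre/Cre and 9.24 TPM in Cre/+ and a limma adjusted p of 0.302. Among the 12 loci of smallest p in the 3 comparisons, the 3′ end lay within 5 bases of an exon start at 6 (50.0%, against 42.6% of all detected loci), namely Mir6946, Mir7012, Mir7087, Mir7081, Mir12193 and Mir6926.

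Mir20a and Mir1192 had the smallest p in Cre/Cre against +/+. Mir20a, of the miR-17/92 cluster at chr14:115044157-115044263, had 1.52, 0.721 and 1.67 TPM in +/+, 1.82, 2.54 and 2.29 TPM in Cre/+, and 5.28, 4.96 and 11.4 TPM in Cre/Cre. The genotypes did not overlap, and the log2 fold change was 1.77 (SE 0.26) with a limma adjusted p of 0.0580, at a mean coverage of only 4.39 reads. The other detected loci of the cluster had fitted log2 fold changes of 0.14 (Mir18), 0.64 (Mir19a) and 0.44 (Mir19b-1) in Cre/Cre against +/+, with limma adjusted p of at least 0.903, and Mir17hg had 0.24. Mir93 and Mir106b, which share the seed of Mir20a, had −0.22 and 0.36.

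Mir1192, in an intron of the transcription factor gene Klf9 at chr19:23149431-23149551, had 2.16, 2.27 and 1.19 TPM in +/+ and 1.12, 1.53 and 0.835 TPM in Cre/+, and was listed at 0 in all 3 Cre/Cre libraries. Its limma adjusted p in Cre/Cre against +/+ was 0.0580, and no fold is given against a group listed at 0. Without either the +/+ or the Cre/+ libraries its mean was below 1 TPM, so this p is not independent of the choice of loci. Klf9 had means of 128, 144 and 126 TPM. Of the next loci by p, Mir6926 in Sgsm2 had means of 0.428, 0.50 and 3.26 TPM in +/+, Cre/+ and Cre/Cre and reached the limit only through Cre/Cre, so its values are a description. Mir1291 in Kansl2 had means of 13.6 TPM in +/+ and 24.3 TPM in Cre/Cre, and Mir1964 in Zfp84 had 1.66 and 4.66 TPM, with limma adjusted p of 0.444 and 0.462. Both were higher in every Cre/Cre library than in any +/+ library.

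The genes that make and use microRNAs were measured far more tightly than the loci. All 37 genes on a list of processing, export, dicing, Argonaute and decay factors passed the filter, and 0 were called in any comparison, with limma adjusted p of at least 0.381. Drosha had a mean of 84.0 TPM, Dgcr8 44.1 TPM, Dicer1 53.6 TPM and Ago2 46.7 TPM. At an unadjusted p under 0.05 there were 4 of the 37 in Cre/+ against +/+ (10.8%, against 10.7% of all genes), which is the background share. They were 4 genes higher in Cre/+ and 0 lower, where 4.9% of all genes were higher and 5.82% lower: the deadenylase genes Cnot7 and Pan3, the poly(A) polymerase gene Tent2 and the exonuclease gene Xrn2. Their log2 fold changes were 0.25, 0.28, 0.20 and 0.20. In Cre/Cre against +/+ and against Cre/+ the count was 0 of 37, where 6.97% and 6.58% of all genes had such a p.

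The medians of the list were 0.06 in Cre/+ against +/+, −0.01 in Cre/Cre against +/+ and −0.05 in Cre/Cre against Cre/+. The ends of the range were Tarbp2, a partner of Dicer1, at −0.13 and Lin28b at 0.29 in the first, and the helicase gene Mov10 at −0.36 and Tarbp2 at 0.12 in the last. Against +/+, the range in Cre/Cre ran from −0.19 for Mov10 to 0.22 for Lin28a, an inhibitor of let-7 processing, which had a mean of 6.93 TPM.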

How the data were processed

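Strand-specific, poly(A)-selected RNA-Seq of whole retinas was analysed in 9 libraries. Per the labels and the methods, the authors used Trimmomatic for trimming, HISAT2 for alignment to mm10 and StringTie for gene levels (versions and annotation not given in the sources used here). The authors deposited TPM, FPKM and coverage (signal per base) for each gene, and no counts, so the count test planned for read counts gave way to limma. TPM of rows with the same name were summed, and the 15198 genes with a mean of at least 1 TPM were tested on log2(TPM + 1) with limma 3.58.1 in R 4.3.3 (trend and robust prior, all 9 libraries, genotype as the only term), with Benjamini-Hochberg adjustment over all genes. This scale understates the change of low genes. The script was tested on simulated data. Depth in reads per gene is unknown, and the spread between 3 mice sets the precision.

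Members and lists were chosen with earlier results of these data known. By rule, the text names the 10 loci of highest mean TPM, loci called in any comparison, the 5 of smallest p in each, those next to the TPM limit, the retinal list with host genes, Rbpms, and the genes of microRNA processing at an unadjusted p under 0.05 or at the ends of the range; other loci were chosen after their values were seen. Alternatives were a pseudocount of 0.1, no filter, a filter of 5 TPM, FPKM, median-ratio scaling, a replicate block, only the genotypes compared, no robust prior, Xist as covariate, and each library left out. A further 2 were chosen after seeing the data, TPM without Rn45s, Rpph1, Rmrp and Lars2, and a prior variance over the microRNA loci alone.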

Additional observations from a re-analysis of the deposited data

How the results depend on the processing

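The count of called loci varied between ways of fitting the data, and the smallest adjusted p-values lay near 0.05. In Cre/Cre against Cre/+, the 1 locus called became 2 with a pseudocount of 0.1 or a filter of 5 TPM and 3 with FPKM, and 0 without a filter, with median-ratio scaling, without the robust prior, with only the genotypes compared, or with a prior over the microRNA loci alone. In Cre/Cre against +/+, the 0 loci became 2 with a pseudocount of 0.1 and 1 with only the genotypes compared. With Xist as covariate, Mir1249 alone was called, in Cre/Cre against Cre/+ (log2 fold change 0.90, SE 0.13, limma adjusted p of 0.0189). Leaving out each library in turn gave 0 to 1 locus in Cre/+ against +/+, 0 to 2 in Cre/Cre against +/+ and 0 to 1 in Cre/Cre against Cre/+. Mir1249 was lost in the last comparison without +/+ replicate 1 or 3, without Cre/+ replicate 1 or 3, and without any 1 of the Cre/Cre libraries. Without +/+ replicate 3, Mir697 was called in both comparisons with +/+ and Mir1192 in Cre/Cre. Without Cre/+ replicate 1, Mir3061 was called in Cre/+ against +/+ and Mir3076 in Cre/Cre against Cre/+. Without Cre/+ replicate 2, Mir1249 was called in Cre/+ against +/+, without Cre/Cre replicate 2 Mir20a in Cre/Cre against +/+, and without Cre/Cre replicate 3 Mir93 in Cre/Cre against Cre/+. These loci were named after their values were seen. Mir1192 and Mir93 reached 1 TPM only with the libraries of a given genotype included, so their calls are not independent of the choice of loci. The 15 locus differences of smallest p kept their direction in all 291 refits. They were picked for a small p in these same libraries, which the refits use again, so the kept direction is no separate support.

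With the replicate number as a block, 0 loci were called in Cre/Cre against Cre/+ (Mir1249: adjusted p = 0.0516 in limma). Same-numbered libraries did not deviate together (r of −0.116 to 0.128), and for differently numbered ones r ran from −0.194 to 0.261. Such correlations cannot exclude a pairing of the mice, and the labels do not say what the numbers mark.

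Rbpms in Cre/Cre against +/+ had a log2 fold change of −0.96 without a filter, where the adjusted p in limma rose to 0.182. Against Cre/+ it passed the threshold with a filter of 5 TPM (−0.60), with FPKM (−0.57), with the Xist covariate (−0.64) and with the prior over the microRNA loci alone (−0.60). As libraries were left out in turn, it lay between −0.70 and −0.54, with limma adjusted p from 0.0107 to 0.383. A limit of 5 TPM in place of 1 left 111 detected loci. No gene of microRNA processing was called in any refit. At 1 to 2 TPM, a locus rests on 1 to 3 reads per base. The spread between libraries of a genotype limits what can be called, with a median coefficient of variation of 71.4%, against 27.6% for other genes at that level. The parts of read number and of differences between mice in this spread were not tested.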
